A study of Homo sapiens with 6 samples.

Results

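The 55 genes described here encode SR proteins, heterogeneous nuclear ribonucleoproteins (hnRNPs) and related splicing regulators, together with the kinases that phosphorylate SR proteins. They were taken by symbol and role from the 63677 genes of the count table, and all 55 were matched. The list was drawn up with earlier results of these data known. Of these, 54 passed the filter on low counts and were tested among 22331 genes. SRSF8 was not measured, because the identifier matched to it lies on a patch sequence of the assembly and had 0 fragments in all 6 libraries.

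Poly(A) RNA was sequenced from HEK293, an established human embryonic kidney cell line, 48 hours after siRNA transfection with a lipid reagent. The siRAB3IP group received siRNA against circRAB3IP, the siCAMSAP1 group received siRNA against circCAMSAP1, and the control group received NTC, which the labels spell out as a no template control. Both targets are circular RNAs, made by back-splicing from the RAB3IP and CAMSAP1 genes, and each group had 2 libraries. All groups were transfected cells of the same line with no other agent or allele named. The labels do not say whether a group's libraries were separate cultures, so the p-values cover the spread between libraries alone, and that spread may be technical.

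The group names are those of the authors' deposited tables, taken by library identifier. The titles of the sample records place 4 of the 6 libraries in other groups, and grouping by those titles left 0 members called in each comparison (edgeR quasi-likelihood test; 0, 1 and 0 members had an unadjusted p under 0.05 in siRAB3IP against control, siCAMSAP1 against control and siRAB3IP against siCAMSAP1). The sources used here do not settle which names are right, and every direction below rests on the table names. Libraries held 37379217 to 39637733 fragments assigned to genes, and the 10 most abundant genes took 13.0% to 14.9% of them. The linear host transcripts cannot check the knockdown of a circular RNA. RAB3IP had 68.1 and 66.7 CPM (counts scaled to library size) in siRAB3IP libraries and 57.5 and 62.5 CPM in control libraries, and CAMSAP1 had 139 and 138 CPM in siCAMSAP1 libraries and 138 and 136 CPM in control libraries. Of 10 markers listed for HEK293, VIM, SALL2, SALL1 and L1CAM stood above 1 CPM, PAX8, PAX2 and NEFM below 1 CPM, DLK1 was at 0, and LHX1 and NEFL were not matched. The summed markers reached 276 and 378 CPM in siRAB3IP libraries, 226 and 261 CPM in siCAMSAP1 libraries and 273 and 318 CPM in control libraries, with VIM the main part. Of 13 markers of blood, liver, epithelial, endothelial, stromal and muscle cells, 3 exceeded 1 CPM (COL1A1, LUM and DES) in each library, and HBB and PECAM1 were at 0 in every one. Their sum was 12.03 and 17.49 CPM in siRAB3IP libraries, 15.7 and 22.5 CPM in siCAMSAP1 libraries and 16.4 and 21.0 CPM in control libraries, and its part in the results below was not tested.

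SR proteins carry RNA-recognition domains and a tail rich in arginine and serine, and they bind exonic enhancers and recruit the spliceosome to nearby splice sites. SRPK kinases phosphorylate that tail in the cytoplasm, which lets SR proteins enter the nucleus, and CLK kinases phosphorylate it further inside the nucleus. hnRNPs coat nascent transcripts and often act against SR proteins by masking splice sites, although many activate exons from other positions. The hnRNP F/H proteins bind runs of guanines, PTB proteins bind pyrimidine-rich tracts, and hnRNP K and the PCBP proteins bind cytosine-rich RNA through KH domains. Many of these genes limit their own mRNA by splicing in exons that send the transcript to decay, so their levels are often interlinked.

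A single sequence feature is shown before the values, because an earlier search of these same data tied it to genes that fell in siRAB3IP libraries, HNRNPF among them. It is the word TGACTTAA in 3' UTRs, searched on the mRNA strand alone in the longest annotated 3' UTR of each gene. It was present in 667 of 14556 tested genes with an annotated 3' UTR (4.58%) and in 7 of the 54 members tested. The 3' UTRs of these 7 ran from 1020 bases (HNRNPF) to 5097 bases (SYNCRIP). A longer UTR has more places for a match, and members and all genes were not matched for UTR length. Since the word was chosen on these libraries, a carrier that fell is not independent support for it. The earlier search was not repeated here, and a link between the word and a fall was not tested. The siRNA sequences were not used here. The sites are given with the word in capitals, in the sense of the mRNA, on GRCh38 from GENCODE transcripts, with the start of the word counted from the first base of the 3' UTR.
HNRNPF (chr10:43386117-43386146, minus strand, position 502): tggtgaggcctTGACTTAAaactttctttg
HNRNPH3 (chr10:68342232-68342261, plus strand, position 189): gttgcatacttTGACTTAAaaataaatttt
HNRNPA3 (chr2:177223878-177223907, plus strand, position 4497): caatgttcatgTGACTTAAacactataggt
HNRNPC (chr14:21210951-21210980, minus strand, position 368): atacctctttaTGACTTAAcaataaaaagg
HNRNPD (chr4:82353628-82353657, minus strand, position 539): caaattgggaaTGACTTAAtgtcaatttgt
HNRNPLL (chr2:38563459-38563488, minus strand, position 705): tttgttgcatgTGACTTAAatacagctagt
SYNCRIP (chr6:85609465-85609494, minus strand, position 3399): tactgtgaatcTGACTTAAaatgtaaagtt

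Of these 7 carriers, HNRNPF alone was called in siRAB3IP against control, at a log2 fold change of -0.80. The other carriers had log2 fold changes of -0.16 in HNRNPD, -0.11 in HNRNPC, -0.11 in HNRNPLL, 0.11 in HNRNPA3, 0.17 in SYNCRIP and 0.19 in HNRNPH3, with adjusted p-values between 0.237 and 0.477 (edgeR). HNRNPH1 and HNRNPH2, the closest paralogs of HNRNPF, had no copy of the word in 3' UTRs of 782 and 795 bases. A match is a description of the letters in the UTR and not evidence of a site that is used.

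With siRAB3IP, HNRNPF fell the most of the members and PCBP4, an RNA-binding protein of the PCBP family, rose. In all, 7 of 54 members were called in siRAB3IP against control, 2 higher (PCBP4 and HNRNPUL2) and 5 lower (HNRNPF, SRSF12, PTBP2, TRA2A and HNRNPK). A gene was called when its adjusted p was under 0.05 by edgeR (quasi-likelihood test), adjusted by Benjamini-Hochberg over all 22331 genes. The members' shares of 3.70% higher and 9.26% lower stand beside 6.39% of all genes tested called higher and 5.24% called lower. Fewer members, and fewer of all genes, were called without siRAB3IP replicate 1, without siRAB3IP replicate 2 or without control replicate 1. Both siRAB3IP libraries lay above both control libraries for 12 members (22.2%, against 25.9% of all genes), and below both for 24 members (44.4%, against 27.8% of all genes). The median log2 fold change of the 54 members was -0.07, with 36 below 0 and 18 above. That of all 22331 genes was -0.01, with 11519 below 0 and 10812 above. Together the 55 genes took 1.04% and 0.993% of the assigned fragments in siRAB3IP libraries, 1.12% and 1.10% in siCAMSAP1 libraries, and 1.14% and 1.14% in control libraries. In RNA from a whole culture, a lower level in every cell and a loss in some of the cells cannot be told apart.

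With siCAMSAP1, a single member was called against control, and it was MBNL1, which fell. Without siCAMSAP1 replicate 2 MBNL1 was not called, and fewer of all genes were called than with every library (edgeR). The member shares of 0% higher and 1.85% lower stand beside 0.448% of all genes called higher and 0.493% called lower. Both siCAMSAP1 libraries lay above both control libraries for 10 members and below both for another 10 (18.5% each), against 20.6% and 20.9% of all genes. The median log2 fold change of the members was 0.00, as was that of all genes. Both knockdowns were set against the same control libraries, so their values for a member are not independent of each other.

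**Figure D1:**
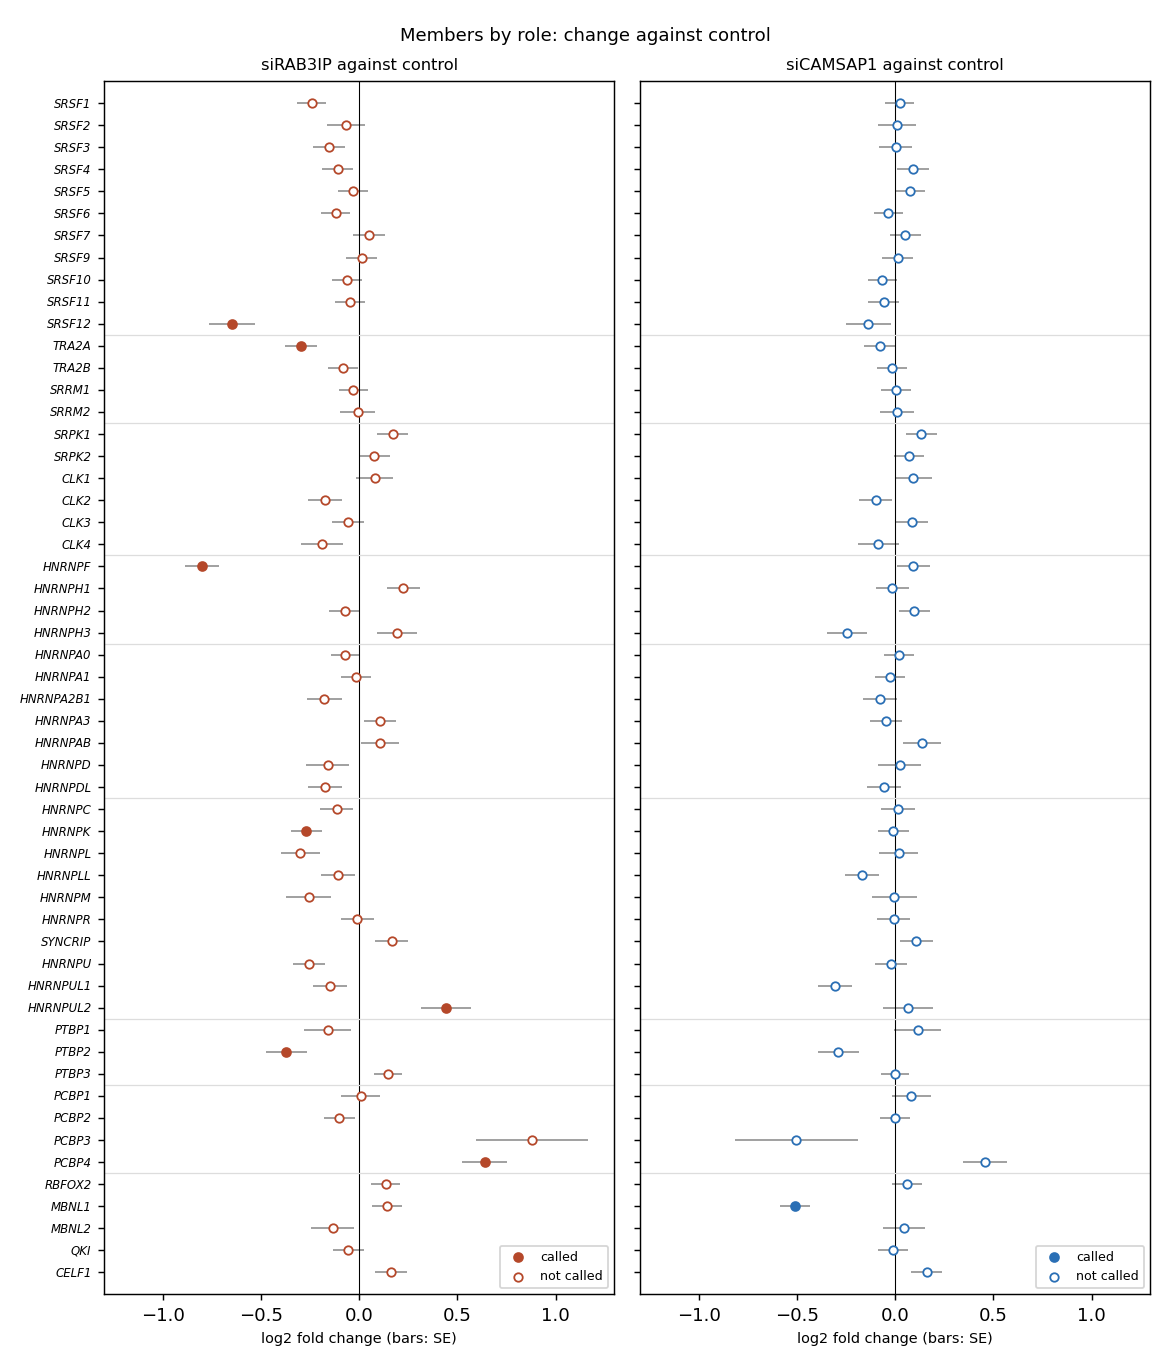
Log2 fold change of the 54 tested members, in rows by role, for siRAB3IP against control (left) and siCAMSAP1 against control (right), with bars for the standard error and filled points for members called at an adjusted p under 0.05 (edgeR). The called siRAB3IP points are HNRNPF at -0.80, SRSF12 at -0.65, PTBP2 at -0.37, TRA2A at -0.30, HNRNPK at -0.27, HNRNPUL2 at 0.44 and PCBP4 at 0.64, and the called siCAMSAP1 point is MBNL1 at -0.51.

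The hnRNP F/H genes form a family of 4, of which HNRNPF and HNRNPH1 encode abundant proteins that bind the same guanine runs. HNRNPF (ENSG00000169813, hg19 chr10:43881065-43904614, minus strand) had 288 and 259 CPM in siRAB3IP libraries, 527 and 489 CPM in siCAMSAP1 libraries, and 494 and 460 CPM in control libraries. The siRAB3IP libraries were both far below the other 4, whose values were interleaved between siCAMSAP1 and control. HNRNPF fell by 0.80 on the log2 scale in siRAB3IP against control (SE 0.09, edgeR adjusted p = 0.000202), and its log2 fold change in siCAMSAP1 against control was 0.09 (SE 0.09). Its call in siRAB3IP held without any single library, with log2 fold changes between -0.88 and -0.73. No exon base of HNRNPF overlaps another gene, and its annotated pseudogene had 0 fragments.

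None of the paralogs of HNRNPF was called in siRAB3IP against control in the main edgeR fit. HNRNPH1 (hg19 chr5:179041179-179061785) had 488 and 488 CPM in siRAB3IP libraries, 393 and 433 CPM in siCAMSAP1 libraries, and 398 and 437 CPM in control libraries. Its siRAB3IP libraries were above the other 4, at a log2 fold change of 0.23 against control (SE 0.08), which missed the threshold (edgeR adjusted p = 0.107). HNRNPH1 was called when the replicate number was added to the fit (edgeR adjusted p = 0.00471). The authors' deposited table also lists it (DESeq2 adjusted p = 0.0351). HNRNPH2 (hg19 chrX:100663283-100669121) had 86.5 and 93.0 CPM in siRAB3IP libraries, 99.5 and 103 CPM in siCAMSAP1 libraries, and 96.1 and 93.0 CPM in control libraries, with a log2 fold change of -0.07 (SE 0.08) in siRAB3IP against control. HNRNPH2 shares 16.3% of its exon bases with the read-through gene RPL36A-HNRNPH2. HNRNPH3 (hg19 chr10:70090931-70102948), a shorter paralog with fewer RNA-binding domains, had 31.7 and 30.2 CPM in siRAB3IP libraries, 22.7 and 23.0 CPM in siCAMSAP1 libraries, and 24.7 and 29.5 CPM in control libraries. The siRAB3IP values of HNRNPH3 were the highest and the siCAMSAP1 values the lowest, so the siRNA groups differed from each other while neither was called against control.

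HNRNPF made up a smaller part of the family in siRAB3IP libraries. Per kilobase of merged exon, HNRNPF averaged 84.1 ± 6.25 CPM per kb in siRAB3IP libraries, 156 ± 8.12 in siCAMSAP1 libraries and 147 ± 7.40 in control libraries (SD, n = 2 each). HNRNPH1 averaged 51.5 ± 0.0182 CPM per kb in siRAB3IP libraries, 43.6 ± 3.01 in siCAMSAP1 libraries and 44.1 ± 2.95 in control libraries. HNRNPH2 averaged 40.4 ± 2.08 CPM per kb in siRAB3IP libraries, 45.5 ± 1.05 in siCAMSAP1 libraries and 42.5 ± 0.995 in control libraries. HNRNPH3, the scarcest, averaged 5.76 ± 0.192 CPM per kb in siRAB3IP libraries, 4.25 ± 0.0465 in siCAMSAP1 libraries and 5.04 ± 0.633 in control libraries. HNRNPF supplied 47.9% and 44.6% of the summed F/H level per kb in siRAB3IP libraries, 64.2% and 61.0% in siCAMSAP1 libraries, and 62.8% and 60.2% in control libraries. The summed level was 185 and 179 CPM per kb in siRAB3IP libraries, 252 and 247 in siCAMSAP1 libraries, and 242 and 235 in control libraries. The HNRNPF to HNRNPH1 ratio of CPM was -0.76 and -0.91 on the log2 scale in siRAB3IP libraries, 0.42 and 0.17 in siCAMSAP1 libraries, and 0.31 and 0.07 in control libraries. That is a difference of -1.03 between the siRAB3IP and control means and of 0.11 between the siCAMSAP1 and control means, a quantity that does not depend on library scaling.

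**Figure D2:**
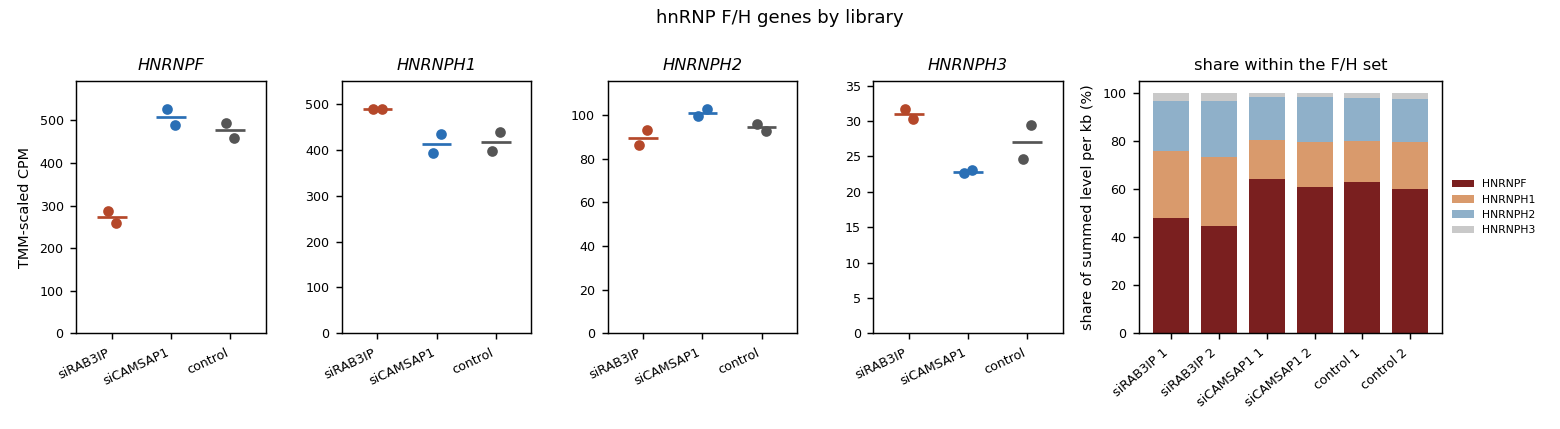
TMM-scaled CPM of the 4 hnRNP F/H genes in each library (points, with a line at the mean of 2), for siRAB3IP, siCAMSAP1 and control from left to right, and on the right the share of each gene in their summed level per kb in each library, in percent. HNRNPF stands at 288 and 259 CPM in siRAB3IP libraries and at 460 CPM or more elsewhere, and its share is 47.9% and 44.6% in siRAB3IP libraries against 60.2% or more in the other 4.

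Ratios within other related pairs are given for comparison. Between siRAB3IP and control, the mean log2 ratio differed by 0.16 for HNRNPA1 to HNRNPA2B1, by -0.12 for HNRNPA1 to HNRNPA3, by 0.05 for HNRNPA1 to HNRNPA0, by 0.01 for HNRNPD to HNRNPDL and by -0.17 for HNRNPR to SYNCRIP. It differed by -0.28 for HNRNPD to HNRNPAB, -0.31 for PTBP1 to PTBP3, 0.27 for MBNL1 to MBNL2, 0.27 for CLK1 to CLK4 and -0.26 for SRSF1 to SRSF9. The larger siRAB3IP differences were in sets that hold another called gene or the rare PCBP3, with -0.71 for HNRNPU to HNRNPUL2, 0.59 for SRSF10 to SRSF12, -0.63 for PCBP1 to PCBP4 and -0.87 for PCBP1 to PCBP3. Between siCAMSAP1 and control, the largest differences among the 28 pairs formed were 0.60 for PCBP1 to PCBP3 and -0.55 for MBNL1 to MBNL2. These ratios are descriptions without a test.

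Among the 11 SR proteins tested, 1 was called in siRAB3IP against control, SRSF12 (9.09% lower, against 5.24% of all genes tested). Of the 11, 9 had a log2 fold change below 0 (median -0.07), as had 11519 of all 22331 genes. SRSF12 (hg19 chr6:89805678-89827800), an SR-like protein described as antagonising other SR proteins, had 10.1 and 9.56 CPM in siRAB3IP libraries, 13.4 and 14.7 CPM in siCAMSAP1 libraries, and 16.2 and 14.7 CPM in control libraries. Its siRAB3IP libraries were the lowest, and SRSF12 fell by 0.65 on the log2 scale against control (SE 0.12, edgeR adjusted p = 0.00404). SRSF12 was also the scarcest SR protein per length, at 2.16 ± 0.0885 CPM per kb in siRAB3IP libraries and 3.39 ± 0.233 CPM per kb in control libraries (SD, n = 2 each). SRSF10, its closest relative in the list, ranged from 239 to 257 CPM over the 6 libraries.

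SRSF1 (hg19 chr17:56080721-56084707), the founding SR protein, was the most abundant of them per length, at 122 ± 1.22 CPM per kb in siRAB3IP libraries, 147 ± 0.568 in siCAMSAP1 libraries and 144 ± 0.966 in control libraries (SD, n = 2 each). It had 411 and 405 CPM in siRAB3IP libraries, 491 and 489 CPM in siCAMSAP1 libraries, and 485 and 480 CPM in control libraries. The siRAB3IP libraries were the lowest, with a small spread in each group. The log2 fold change of SRSF1 in siRAB3IP against control was -0.24 (SE 0.07) and just missed the threshold (edgeR adjusted p = 0.0537; DESeq2 and limma-voom called it). Its paralog SRSF9 ranged from 175 to 190 CPM with no separation of the groups. The remaining SR proteins had siRAB3IP log2 fold changes between -0.15 in SRSF3 and 0.05 in SRSF7. In siCAMSAP1 against control, 0 of 11 SR proteins were called by edgeR, DESeq2 or limma-voom and 0 had an unadjusted p under 0.05. Their log2 fold changes there lay between -0.14 and 0.09. Of all genes tested, edgeR called 0.448% higher and 0.493% lower in that comparison.

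Of the 4 SR-related proteins, TRA2A was called lower in siRAB3IP. TRA2A (hg19 chr7:23544399-23571660) is a transformer-2 homologue that binds purine-rich exonic enhancers. It had 45.6 and 42.0 CPM in siRAB3IP libraries, 51.0 and 51.0 CPM in siCAMSAP1 libraries, and 53.4 and 54.3 CPM in control libraries, with the siRAB3IP libraries lowest. TRA2A fell by 0.30 on the log2 scale in siRAB3IP against control (SE 0.08, edgeR adjusted p = 0.0328), a call that was lost without either siRAB3IP library, either control library or siCAMSAP1 replicate 1. TRA2B, its more abundant paralog and the highest of the SR-related genes per length, had 243 and 238 CPM in siRAB3IP libraries, 246 and 258 CPM in siCAMSAP1 libraries, and 255 and 255 CPM in control libraries. SRRM1, a coactivator with no RNA-recognition domain and the lowest of the set per length in control, had 103 and 99.6 CPM in siRAB3IP libraries, 105 and 102 CPM in siCAMSAP1 libraries, and 104 and 103 CPM in control libraries.

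The kinases gave 0 calls of 6 in each knockdown by edgeR, DESeq2 and limma-voom. Of all genes tested, edgeR called 6.39% higher and 5.24% lower in siRAB3IP, and 0.448% and 0.493% in siCAMSAP1. For a set of 6 genes, 0 calls is near those shares. At an unadjusted p under 0.05 edgeR gave 0, and DESeq2 and limma-voom gave 1 each in siRAB3IP against control. SRPK1, the most abundant per length, had 236 and 213 CPM in siRAB3IP libraries, 218 and 220 CPM in siCAMSAP1 libraries, and 204 and 196 CPM in control libraries. Its siRNA libraries all lay above control, at log2 fold changes of 0.17 in siRAB3IP (SE 0.08) and 0.13 in siCAMSAP1 (SE 0.08). CLK4, the least abundant per length, had 25.4 and 22.9 CPM in siRAB3IP libraries, 23.8 and 28.1 CPM in siCAMSAP1 libraries, and 27.5 and 27.6 CPM in control libraries.

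The 7 genes of the hnRNP A/B/D set also gave 0 calls in each knockdown by the same tools, beside the same shares of all genes. At an unadjusted p under 0.05 edgeR and DESeq2 gave 0, and limma-voom gave 2 in siRAB3IP against control. The siRAB3IP log2 fold changes of the 7 genes lay between -0.18 (HNRNPA2B1) and 0.11 (HNRNPA3 and HNRNPAB), and their siCAMSAP1 values between -0.08 and 0.14. HNRNPA1, which represses many exons, was the highest of them per length in control, with 563 and 546 CPM in siRAB3IP libraries, 556 and 545 CPM in siCAMSAP1 libraries, and 566 and 556 CPM in control libraries. HNRNPA1 has 74 annotated pseudogenes, which took 6.61% to 7.73% of the fragments assigned to gene and pseudogenes together, so its level is uncertain. The same share was 7.14% to 9.58% for HNRNPA3 and 4.55% to 4.78% for HNRNPC. HNRNPD, also known for directing the decay of AU-rich mRNAs, was the lowest per length, with 62.5 and 49.6 CPM in siRAB3IP libraries, 68.2 and 59.2 CPM in siCAMSAP1 libraries, and 61.2 and 64.2 CPM in control libraries. The replicates of HNRNPD overlapped between groups.

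Of the 10 other hnRNPs, siRAB3IP against control called HNRNPK lower and HNRNPUL2 higher (10% each, against 5.24% and 6.39% of all genes tested). Log2 fold changes were below 0 in 8 of the 10, and in 11519 of all 22331 genes. HNRNPK (hg19 chr9:86582998-86595569), a KH-domain protein that binds cytosine-rich RNA and DNA, had 520 and 488 CPM in siRAB3IP libraries, 620 and 586 CPM in siCAMSAP1 libraries, and 624 and 590 CPM in control libraries. Its siRAB3IP libraries were the lowest, at a log2 fold change of -0.27 (SE 0.08, edgeR adjusted p = 0.0476), and the call was lost without any single library of any group and with RLE scaling. HNRNPUL2 (hg19 chr11:62480102-62494821), a relative of the nuclear scaffold protein hnRNP U, had 20.2 and 17.4 CPM in siRAB3IP libraries, 13.8 and 15.2 CPM in siCAMSAP1 libraries, and 12.5 and 15.1 CPM in control libraries. HNRNPUL2 rose by 0.44 on the log2 scale in siRAB3IP against control (SE 0.13, edgeR adjusted p = 0.0388), and the call was lost without either siRAB3IP library, without control replicate 1 and with upper-quartile scaling. As 44.5% of its exon bases are shared with the read-through gene HNRNPUL2-BSCL2, its level is uncertain. Per length in control, HNRNPK was the highest of these 10 and HNRNPUL2 the lowest.

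Just outside the threshold in siRAB3IP against control were HNRNPU, the scaffold protein itself, at -0.26 (SE 0.08, edgeR adjusted p = 0.0604), and HNRNPL, which binds CA-rich RNA, at -0.30 (SE 0.10, edgeR adjusted p = 0.0694). HNRNPU had 671 and 610 CPM in siRAB3IP libraries against 749 and 783 CPM in control libraries, and HNRNPL had 193 and 172 CPM in siRAB3IP libraries against 241 and 209 CPM in control libraries. In both genes the siRAB3IP libraries were below the control libraries, and DESeq2 called both, as limma-voom did HNRNPU. In siCAMSAP1 against control, edgeR called 0 of these 10 hnRNPs (against 0.448% of all genes higher and 0.493% lower), as did DESeq2 and limma-voom. Of the 10, 1 had an unadjusted p under 0.05. That gene was HNRNPUL1, with 273 and 241 CPM in siCAMSAP1 libraries against 328 and 307 CPM in control libraries, a log2 fold change of -0.31 (SE 0.09, edgeR adjusted p = 0.148).

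Among the 3 PTB proteins, 1 was called in siRAB3IP against control, PTBP2 (33.3% lower, against 5.24% of all genes tested). PTBP2 (hg19 chr1:97187221-97289294) is the form typical of neurons, which PTBP1 keeps low in other cells by skipping of a PTBP2 exon. It had 26.2 and 29.1 CPM in siRAB3IP libraries, 26.8 and 31.7 CPM in siCAMSAP1 libraries, and 34.2 and 37.4 CPM in control libraries. Control was the highest group, and the siRNA groups overlapped with each other. PTBP2 fell by 0.37 on the log2 scale in siRAB3IP against control (SE 0.10, edgeR adjusted p = 0.0379), a call lost without either siRAB3IP library or control replicate 2, and in siCAMSAP1 against control the value was -0.29 (SE 0.10, edgeR adjusted p = 0.271). PTBP1 (hg19 chr19:797075-812327) had 326 and 269 CPM in siRAB3IP libraries, 395 and 326 CPM in siCAMSAP1 libraries, and 364 and 302 CPM in control libraries, with replicate 2 below replicate 1 in each group. Its log2 fold changes of -0.16 in siRAB3IP (SE 0.12) and 0.12 in siCAMSAP1 (SE 0.12) were not called. Per length in control, PTBP1 stood at 47.7 ± 6.31 CPM per kb and PTBP2 at 2.72 ± 0.172 CPM per kb (SD, n = 2 each).

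Of the members that rose in siRAB3IP, PCBP4 had the smallest adjusted p. PCBP4 (hg19 chr3:51991470-52002426), which binds cytosine-rich RNA and is known as a target of p53, had 16.8 and 17.1 CPM in siRAB3IP libraries, 15.0 and 14.9 CPM in siCAMSAP1 libraries, and 11.7 and 10.1 CPM in control libraries. The groups did not overlap, and control was the lowest. PCBP4 rose by 0.64 on the log2 scale in siRAB3IP against control (SE 0.11, edgeR adjusted p = 0.00372), and the call held without any single library, at 0.54 to 0.74. In siCAMSAP1 against control the log2 fold change of PCBP4 was 0.46 (SE 0.11), short of the threshold (edgeR adjusted p = 0.0915). PCBP4 shares 14.3% of its exon bases with other genes, 1 of them on the opposite strand.

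PCBP3 (hg19 chr21:47063608-47362368), a rarer paralog, had 1.98 and 1.57 CPM in siRAB3IP libraries, 0.773 and 0.584 CPM in siCAMSAP1 libraries, and 0.910 and 1.02 CPM in control libraries. The order of its groups was siRAB3IP above control above siCAMSAP1 without overlap, and neither knockdown was called against control (log2 fold change 0.88, SE 0.28, edgeR adjusted p = 0.0646 in siRAB3IP). PCBP1, an intronless gene and the highest of the family per length, had 28.7 and 28.6 CPM in siRAB3IP libraries, 31.9 and 28.5 CPM in siCAMSAP1 libraries, and 30.2 and 26.9 CPM in control libraries. Of the exon bases of PCBP1 28.3% are shared with PCBP1-AS1 on the opposite strand, and fragments were counted without strand.

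Of the 5 tissue-linked regulators, siCAMSAP1 against control called MBNL1 and none of the other 4 (20.0% lower, against 0.493% of all genes tested). MBNL1 (ENSG00000152601, hg19 chr3:151961617-152183569), the muscleblind protein that expanded CUG repeats sequester in myotonic dystrophy, had 164 and 167 CPM in siRAB3IP libraries, 108 and 103 CPM in siCAMSAP1 libraries, and 145 and 155 CPM in control libraries. The siCAMSAP1 libraries were the lowest and did not overlap the other groups. MBNL1 fell by 0.51 on the log2 scale in siCAMSAP1 against control (SE 0.08, edgeR adjusted p = 0.00965), a call that was lost without siCAMSAP1 replicate 2 alone among the libraries (log2 fold change -0.48). In siRAB3IP against control its log2 fold change was 0.14 (SE 0.08). MBNL1 shares 15.6% of its exon bases with 2 genes on the opposite strand, MBNL1-AS1 among them, and reads of those genes cannot be told apart from its own. MBNL2, its paralog and the lowest of the set per length in control, had 22.6 and 21.9 CPM in siRAB3IP libraries, 23.3 and 27.0 CPM in siCAMSAP1 libraries, and 22.8 and 26.1 CPM in control libraries.

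CELF1, which binds GU-rich RNA and acts against MBNL proteins on several muscle exons, was the highest of this set per length. It had 273 and 250 CPM in siRAB3IP libraries, 263 and 259 CPM in siCAMSAP1 libraries, and 225 and 242 CPM in control libraries. Every siRNA library of CELF1 lay above both control libraries, at log2 fold changes of 0.16 in each knockdown (SE 0.08), neither of them called. RBFOX2 ranged from 109 to 122 CPM and QKI from 165 to 180 CPM over the 6 libraries, and neither was called.

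**Figure D3:**
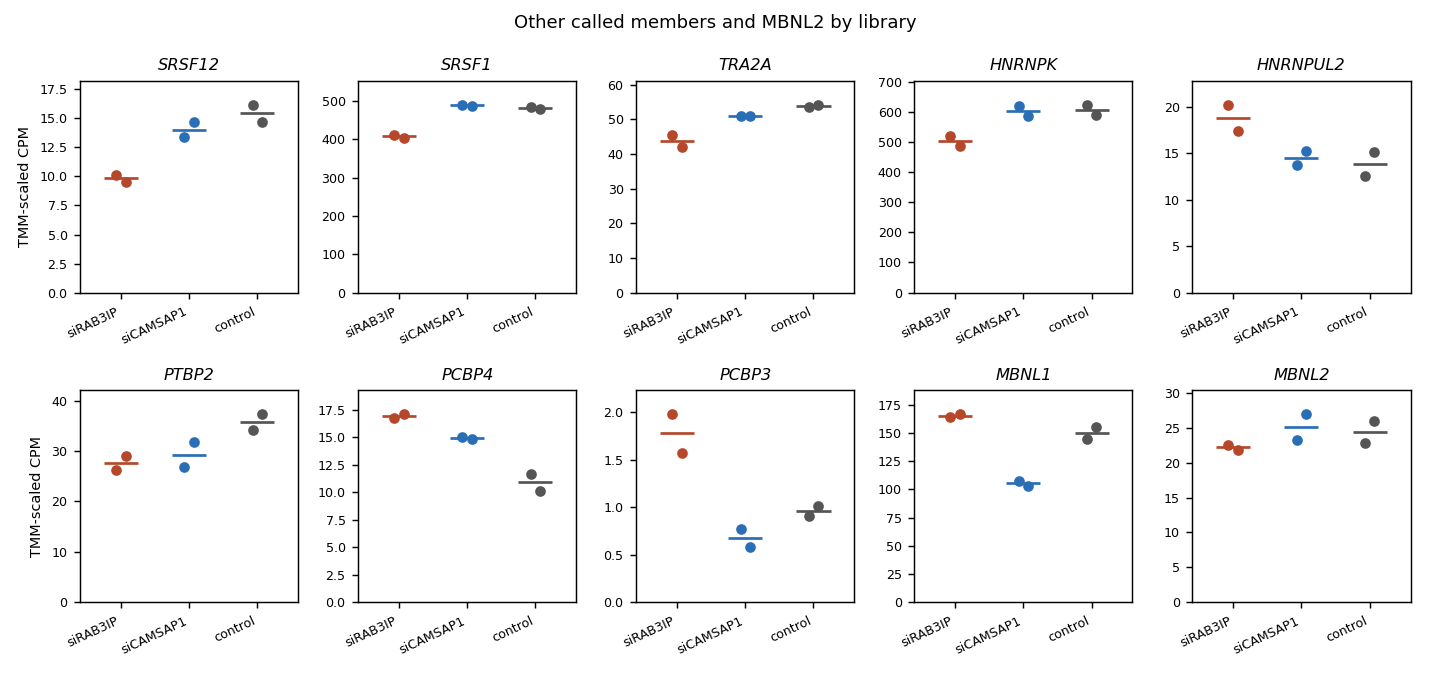
TMM-scaled CPM in each library (points, with a line at the mean of 2) for the called members outside the hnRNP F/H set and for MBNL2, the paralog of MBNL1, with siRAB3IP, siCAMSAP1 and control from left to right and each vertical axis starting at 0. SRSF12, SRSF1, TRA2A and HNRNPK are lowest in siRAB3IP libraries, PCBP4 is lowest in control libraries, and MBNL1 is at 108 and 103 CPM in siCAMSAP1 libraries against 145 CPM or more elsewhere.

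Set against each other, the siRNA groups differed in 6 of 54 members. These were 3 higher in siRAB3IP (5.56%, against 4.89% of all genes tested) and 3 lower (5.56%, against 3.96% of all genes). HNRNPF was lower in siRAB3IP by a log2 fold change of -0.89 (SE 0.09, edgeR adjusted p = 0.000129), SRSF12 by -0.51 (SE 0.12) and SRSF1 by -0.26 (SE 0.07). MBNL1 was higher in siRAB3IP at 0.65 (SE 0.08, edgeR adjusted p = 0.000428), HNRNPH3 at 0.44 (SE 0.10) and PCBP3 at 1.39 (SE 0.30). The calls of HNRNPF and MBNL1 held without any single library. Fewer members, and fewer of all genes, were called without either siRAB3IP library or without siCAMSAP1 replicate 2. HNRNPH3 and SRSF1 lost theirs without any siRAB3IP or siCAMSAP1 library, SRSF12 without either siRAB3IP library or siCAMSAP1 replicate 2, and PCBP3 without siRAB3IP replicate 1 or siCAMSAP1 replicate 2. For PCBP4 (0.18), PTBP2 (-0.08) and TRA2A (-0.22) the direct difference on the log2 scale did not reach the threshold.

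Levels per length spanned a wide range within each role. In control libraries the SR proteins lay between 3.39 CPM per kb (SRSF12) and 144 CPM per kb (SRSF1), with a median of 48.6, and the kinases between 3.48 (CLK4) and 29.8 (SRPK1), with a median of 9.48. The hnRNP A/B/D genes had a median of 56.5 CPM per kb, the other hnRNPs 41.9, the hnRNP F/H genes 43.3, the PTB proteins 22.9, the SR-related genes 15.7, the tissue-linked regulators 11.1 and the PCBP genes 5.28. HNRNPF, at rank 226 of the 22331 tested genes by control level per kb, had the highest mean of the members in control and in siCAMSAP1, although SRSF1 was above it in control replicate 2 (144 against 141 CPM per kb). In siRAB3IP libraries its mean of 84.1 CPM per kb was below those of SRSF1 (122), HNRNPAB (110), HNRNPA1 (109), HNRNPC (101) and HNRNPK (97.8).

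**Figure D4:**
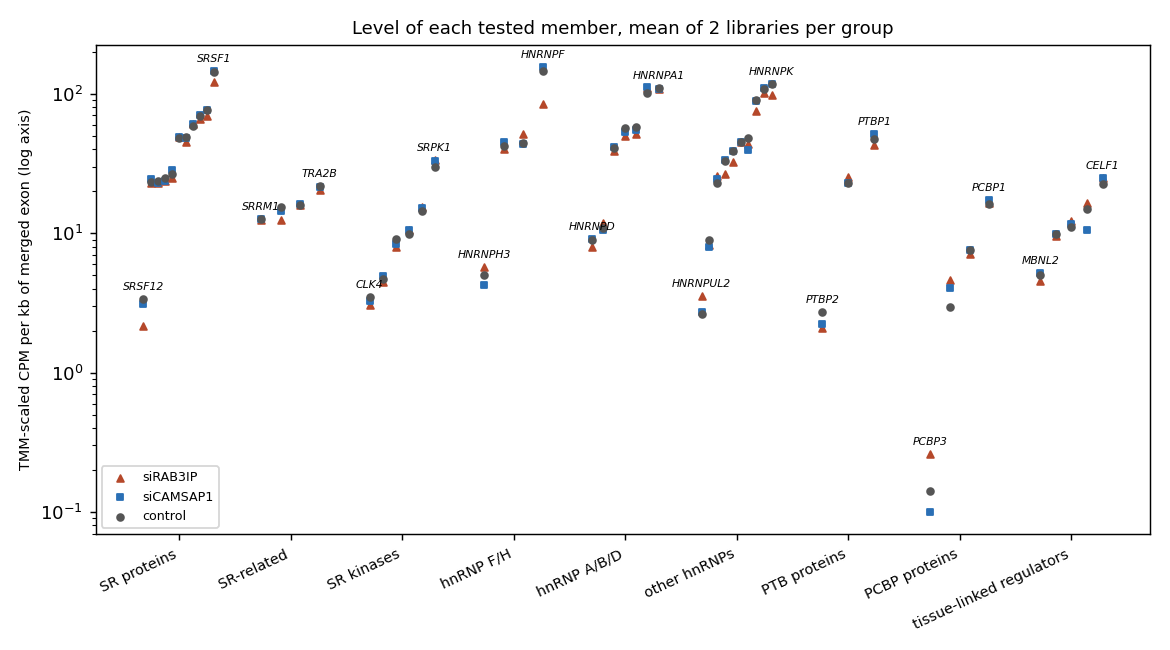
Level of each tested member in TMM-scaled CPM per kb of merged exon on a log axis, by role, as the mean of 2 libraries in siRAB3IP (triangles), siCAMSAP1 (squares) and control (circles), with the lowest and highest member of each role in control named. HNRNPF stands at 84.1 CPM per kb in siRAB3IP libraries and at 147 in control libraries, and PCBP3 lies below the rest at 0.261 in siRAB3IP libraries and 0.142 in control libraries.

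Besides the 55 genes, a list of 105 other splicing regulators and RNA-binding proteins was read in the same fit, and 93 were tested. In siRAB3IP against control 5 rose (5.38%, against 6.39% of all genes tested) and 7 fell (7.53%, against 5.24%), by edgeR, and the median log2 fold change was -0.02. The 4 largest were KHDRBS3, CPEB1, CPEB4 and RBM3. KHDRBS3, a STAR-family splicing regulator, had 3.12 and 3.57 CPM in siRAB3IP libraries and 1.63 and 1.72 CPM in control libraries (log2 fold change 0.995, SE 0.22, edgeR adjusted p = 0.0122). CPEB4, a cytoplasmic polyadenylation factor, had 39.3 and 40.6 CPM in siRAB3IP libraries and 26.0 and 29.9 CPM in control libraries (0.52, SE 0.10), and its relative CPEB1 6.64 and 8.09 CPM in siRAB3IP libraries and 4.47 and 5.59 CPM in control libraries (0.55, SE 0.16). RBM3, a protein induced by cold, had 224 and 213 CPM in siRAB3IP libraries and 332 and 277 CPM in control libraries (-0.48, SE 0.09).

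In siCAMSAP1 against control, RALY, a relative of hnRNP C, was the single gene called of the 93 (1.08% lower and 0% higher, against 0.493% and 0.448% of all genes tested). It had 115 and 95.1 CPM in siCAMSAP1 libraries and 163 and 136 CPM in control libraries, at a log2 fold change of -0.51 (SE 0.10, edgeR adjusted p = 0.0394), and the median of the list was 0.01. The siRNA groups differed in 14 of the 93, 7 higher (7.53%, against 4.89% of all genes tested) and 7 lower (7.53%, against 3.96%) in siRAB3IP, with KHDRBS3 at 0.94, RBM3 at -0.64, RALY at 0.47 and CELF2 at 0.46 the largest. These counts moved with single libraries. In siRAB3IP against control, fewer genes of the list and fewer of all genes were called without either siRAB3IP library or without control replicate 2. RALY lost its siCAMSAP1 call without siRAB3IP replicate 1 or 2, siCAMSAP1 replicate 2 or control replicate 1. Between the siRNA groups, fewer genes of the list and fewer of all genes were called without any siRAB3IP or siCAMSAP1 library.

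The authors' deposited tables, made with DESeq2, hold 10 of the members among 2192 genes for siRAB3IP and 2 among 474 genes for siCAMSAP1. For siRAB3IP, 5 of the 10 were also among the 7 called here (HNRNPF, PCBP4, SRSF12, PTBP2 and HNRNPK). The authors' deposited table lists another 5, which are SRSF1, HNRNPU, HNRNPL, HNRNPM and HNRNPH1, with HNRNPH1 at a log2 fold change of 0.24 and an adjusted p of 0.0351 in that table. TRA2A and HNRNPUL2 were called here and are not in it. For siCAMSAP1 the authors' deposited table holds MBNL1 at -0.51 and HNRNPUL1 at -0.32. The adjusted p of HNRNPUL1 in that table is 0.00046, against 0.148 in the edgeR fit. The DESeq2 fit made here did not call HNRNPUL1 either, nor HNRNPM or HNRNPH1 in siRAB3IP against control. That fit called 10 of 54 members and 2546 of 22331 genes in siRAB3IP, and 1 member and 382 genes in siCAMSAP1. As the authors' deposited tables hold only genes past a threshold, no share over all genes stands beside their counts.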

How the data were processed

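Poly(A) RNA of 6 HEK293 libraries was compared in 3 groups of 2. Per the file headers, the deposited counts come from featureCounts 1.6.0, run without a strand setting on primary alignments of which both ends mapped. STAR, featureCounts, DESeq2 and hg19 are named in the submitters' processing notes. The authors' deposited tables also hold signal columns (counts divided by a size factor per library), log2 fold changes with standard errors, a Wald score and p-value columns, for genes past their threshold. Each of the 8 signal columns was matched to 1 count column (tolerance 1e-09 in log2 ratio), which linked the table names to library identifiers. The exon length is that of the deposited count table.

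In R 4.3.3, edgeR 4.0.16 fitted 1 model over the 3 groups (default filter, TMM scaling, 3 residual degrees of freedom) for quasi-likelihood tests. CPM are TMM-scaled. The error of a log2 fold change is its standard error (SE). Depth was 37379217 to 39637733 fragments, and 3 counts stand for 0.0757 to 0.0803 CPM. Fragments without molecular identifiers are not independent molecules, so this limit covers counting error only.

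The members and lists were chosen with earlier results of these data known. Genes given by library were the called members, the hnRNP F/H genes, the highest and lowest member per kb of each role, and of the other regulators the called ones, at most 4 a comparison. HNRNPU, HNRNPL, HNRNPUL1 and genes given by a range were added after their values were seen. Symbols came from GENCODE release 29, which matched 52181 of 63677 genes, and 3' UTRs from its transcripts. Of the listed cell type markers, 1 is not reported here. The edgeR test was checked on simulated data for siRAB3IP against control. It called, in the right direction, 22.7% of changes of 1.25 fold, 62.7% of 1.5 fold, 92.7% of 2 fold and 96% of 3 fold. The simulation changed 200 of 22331 genes, whereas 2597 were called in the data, so these rates need not hold for the members. Alternatives were grouping by sample records, leaving out each library, a replicate block, DESeq2 1.42.0, limma-voom (limma 3.58.1), upper-quartile or RLE scaling, no filter, the compared groups fitted alone, a mean of at least 5 CPM, glmTreat against a fold of 1.2, and plain counts for the F/H shares.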

Additional observations from a re-analysis of the deposited data

Results flagged for a closer look

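Each of the following 6 members differed between the siRNA groups themselves in edgeR's quasi-likelihood test of siRAB3IP against siCAMSAP1. The test compares 2 groups of libraries and does not show an effect of either knockdown. By edgeR, SRSF1, HNRNPH3 and PCBP3 were not called against control in either knockdown. HNRNPF and MBNL1 alone kept the direct call without any single library. HNRNPF differed by -0.89 on the log2 scale (lower in both siRAB3IP libraries than in both siCAMSAP1 libraries). SRSF12 differed by -0.51 and SRSF1 by -0.26, with both siRAB3IP libraries lower in each gene. MBNL1 differed by 0.65, HNRNPH3 by 0.44 and PCBP3 by 1.39, with both siRAB3IP libraries higher in each gene. PCBP3 stood below 2 CPM in every library.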

How the results depend on the processing

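The number of members called was 7 in siRAB3IP against control, 1 in siCAMSAP1 against control and 6 in siRAB3IP against siCAMSAP1. With a replicate block the counts were 20, 4 and 18. Over all 22331 genes that block called 5371, 1408 and 4630, in place of 2597, 210 and 1977. Same-numbered libraries deviated together with correlations of 0.11 to 0.15 over genes, but with 2 libraries a group and no label marking a shared batch the numbers were not taken as pairs. Besides the members called without it, the replicate block called HNRNPA2B1, HNRNPDL, HNRNPH1, HNRNPL, HNRNPM, HNRNPU, HNRNPUL1, PCBP3, PTBP1, SRPK1, SRSF1, SRSF3 and SYNCRIP in siRAB3IP against control, HNRNPUL1, PCBP4 and PTBP2 in siCAMSAP1 against control, and HNRNPH1, HNRNPH2, HNRNPK, HNRNPL, HNRNPM, HNRNPU, HNRNPUL1, HNRNPUL2, PTBP1, SRSF3, SRSF4 and TRA2A in siRAB3IP against siCAMSAP1. HNRNPH1 had its siRAB3IP call against control under the block (log2 fold change 0.23, edgeR adjusted p = 0.00471). With glmTreat against a fold of 1.2 the counts were 3, 0 and 3 (5, 2 and 5 at an unadjusted p under 0.05). Over all 22331 genes glmTreat called 699, 35 and 513. Without any filter the siCAMSAP1 counts were 3 members and 2 other regulators, against 1 each. That fit called 560 of 41953 genes in siCAMSAP1 against control. Leaving out 1 library gave 3 to 6, 0 to 1 and 2 to 8 members, and for the other regulators 1 to 10, 0 to 1 and 1 to 15, where all libraries gave 12, 1 and 14. A group reduced to 1 library is assumed to vary like the other groups. Fewer of all genes were called too whenever a compared group was so reduced.

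Grouped by the sample records the 3 counts were 0, 0 and 0 (edgeR; 0, 1 and 0 at an unadjusted p under 0.05), and over all 22331 genes 0, 0 and 0 (350, 441 and 471 unadjusted) in place of 2597, 210 and 1977. That grouping turned the sign in siRAB3IP against control of HNRNPF (0.34), HNRNPH1 (-0.093), HNRNPH2 (0.076), HNRNPH3 (-0.11), HNRNPK (0.081), HNRNPUL2 (-0.18), PCBP4 (-0.18), PTBP2 (0.088), SRSF12 (0.092) and TRA2A (0.088), and in siRAB3IP against siCAMSAP1 of HNRNPF (0.40), HNRNPH3 (-0.03), MBNL1 (-0.039), PCBP3 (-0.26), SRSF1 (0.12) and SRSF12 (0.21). By those records siCAMSAP1 replicate 1 and control replicate 2 formed the siRAB3IP group. Control replicate 1 and siRAB3IP replicate 1 formed the control group, and siRAB3IP replicate 2 and siCAMSAP1 replicate 2 the siCAMSAP1 group. Each record group thus mixed libraries of different table groups, and its siRAB3IP group held no library with that table name. Which names are right was not tested.

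HNRNPF, PCBP4 and SRSF12 kept their siRAB3IP calls against control in every alternative but that grouping. glmTreat ended those of TRA2A, PTBP2, HNRNPUL2 and HNRNPK and that of MBNL1 in siCAMSAP1. HNRNPK also lost its call with RLE scaling (adjusted p = 0.058) or in a fit of the compared groups alone (adjusted p = 0.0707), and HNRNPUL2 with upper-quartile scaling (adjusted p = 0.0548) or a mean of at least 5 CPM (adjusted p = 0.0512). Under upper-quartile scaling 36 members lay below 0 and 18 above in siCAMSAP1 against control, against 26 and 28. The median log2 fold change of all genes there was -0.024, against 0.001 in the main fit. From plain counts the HNRNPF share of the F/H genes was 31.0% in siRAB3IP, 48.6% in siCAMSAP1 and 46.9% in control, against 46.2%, 62.6% and 61.5% per kb. With 2 libraries a group, a change that was not called may still be present.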
